A study of Mus musculus with 6 samples.

Results

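The S100 proteins are small calcium-binding proteins, and 9 of their genes were described here across 6 libraries of mouse liver RNA. The genes were chosen by symbol, as S100a1, S100a4, S100a6, S100a8, S100a9, S100a10, S100a11, S100a13 and S100a16, which are 9 of 22068 symbols listed in each library. Polyadenylated RNA was sequenced from whole liver of C57BL/6 mice aged 6 weeks, 3 control libraries and 3 of a liver double knockout (dKO). All mice, controls included, had the Mst1-/- genotype and carried a loxP-flanked Mst2 (Mst2fl/fl), so that the controls were Mst1-null and not wild type. The control was labelled alb-Cre-/- and the dKO alb-Cre+/+, where alb-Cre is a transgene in which the albumin promoter drives Cre recombinase in hepatocytes. Mst1 and Mst2 (genes Stk4 and Stk3) are the upstream kinases of Hippo signalling, whose activity keeps the coactivators YAP and TAZ out of the nucleus, and the comparison asks how liver transcripts differ when Mst2 is also deleted by Cre. Nothing in the labels says that replicates were separate animals, and the p-values therefore cover only the spread seen between libraries, possibly a technical one.

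S100 proteins mostly form dimers, and each subunit carries a pair of EF-hands, the helix-loop-helix folds that bind calcium. Binding of calcium exposes a surface that docks onto target proteins such as annexins, myosin or kinases, so that the proteins relay calcium signals within the cell. Several are also released and act as danger signals on receptors such as RAGE and TLR4. In liver the S100A8 and S100A9 pair, known as calprotectin, is used as a marker of neutrophils and monocytes, and S100A4, S100A6 and S100A11 are known from cholangiocytes, fibroblasts and tumours.

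All 9 genes lie on chromosome 3 in the RefSeq annotation (GRCm38.p6), which lists 15 S100 genes there in the order S100a1, S100a13, S100a14, S100a16, S100a3, S100a2, S100a4, S100a5, S100a6, S100a7a, S100a8, S100a9, S100a7l2, S100a11 and S100a10. RefSeq promoter sequence was at hand for 8 of the 9 genes, all but S100a10, with 9 start sites. The 250 bases before each start were searched on both strands for 4 motifs. The windows of S100a1 and S100a13 overlap in part. The AP-1 motif TGANTCA was in 2 of the 9 windows, against 6.75% of 32851 mouse promoter windows of the same length, and S100a11 held it at 2 places, which 0.338% of all windows did. The TATA motif TATAAA was in the windows of S100a4 and S100a8, against 12.4% of all windows, and the C/EBP motif TTGCNNAA was in that of S100a9, against 9.56%. The TEAD motif GGAATG, bound by the partners of YAP and TAZ, was in 0 of the 9 windows and in 12.6% of all windows, and these are letter matches only. No match overlapped another. The windows of S100a11 and of the second start of S100a16 are shown whole because they hold the AP-1 motif and belong to genes that were higher in dKO liver, and the last 100 bases are shown for S100a8 and S100a4. Each is written 5′ to 3′ on the plus strand of GRCm38.p6, ends at the base before the start, and has the motif in capitals.
S100a11 (chr3:93520246-93520495, AP-1 in capitals): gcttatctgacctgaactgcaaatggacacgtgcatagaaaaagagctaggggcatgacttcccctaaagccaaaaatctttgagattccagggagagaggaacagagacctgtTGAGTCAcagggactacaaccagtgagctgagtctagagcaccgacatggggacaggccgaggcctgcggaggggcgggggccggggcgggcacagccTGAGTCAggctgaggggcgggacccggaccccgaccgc
S100a16 (chr3:90540896-90541145, AP-1 in capitals): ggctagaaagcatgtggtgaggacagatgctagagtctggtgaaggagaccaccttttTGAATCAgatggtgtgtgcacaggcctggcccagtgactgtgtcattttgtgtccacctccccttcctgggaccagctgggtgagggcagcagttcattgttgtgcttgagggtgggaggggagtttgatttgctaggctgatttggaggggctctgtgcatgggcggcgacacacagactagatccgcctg
S100a8 (chr3:90668971-90669070, TATA in capitals): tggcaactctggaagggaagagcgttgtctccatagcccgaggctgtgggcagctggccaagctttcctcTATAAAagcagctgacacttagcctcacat
S100a4 (chr3:90603670-90603769, TATA in capitals): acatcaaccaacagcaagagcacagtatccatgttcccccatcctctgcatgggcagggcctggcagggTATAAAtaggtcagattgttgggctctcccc
In S100a11 the AP-1 matches spanned bases -136 to -130 and -38 to -32 from the start, and in S100a16 bases -192 to -186. The TATA match spanned bases -30 to -25 in S100a8 and -31 to -26 in S100a4.

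The deposited values were read as RPKM, read density scaled to gene length and library size, which allows levels of different genes to be set side by side. RPKM summed to between 324034 and 368246 per library, and the spacing of low values gave estimated depths of 17.3 to 25.15 M reads. Alb, the albumin gene that marks hepatocytes, was at 34054 RPKM or more in every library, and the other hepatocyte markers are given with those of other cell types. Stk3, the gene of Mst2, had a log2 change of -0.15 ± 0.13 (SE; limma adjusted p = 0.424, and 0.0475 after quantile normalization), and Stk4, that of Mst1, of 0.13 ± 0.13 (adjusted p = 0.487; the sign of Stk4 flipped after median-ratio scaling and quantile normalization); with a single value for a whole gene a deleted exon would not show, and these levels do not check the labels. On the first principal component of the tested genes, dKO replicate 3 lay at 49.0, apart from dKO replicates 1 and 2 at 20.3 and 19.2, while the controls lay between -35.7 and -25.4. Each change given is the dKO mean less the control mean of log2(RPKM + 1), a scale that shrinks changes of low genes. A gene was called at a limma adjusted p under 0.05 over the 11062 genes that averaged 1 RPKM or more. In this whole-tissue RNA, more cells of a type and more RNA per cell cannot be told apart.

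In control liver S100a10 was the most abundant of the 9 transcripts, at 182 ± 67.1 RPKM (SD, n = 3), and made up 50.8% ± 4.41 of the RPKM summed over the 9 genes. S100a1 followed at 62.2 ± 10.6 RPKM, below S100a10 in every control library. S100a9 at 41.6 ± 13.3 RPKM overlapped S100a1 above it and S100a8 below it, the latter at 28.8 ± 16.8 RPKM. S100a16, S100a13, S100a11 and S100a6 had control means between 8.14 and 11.2 RPKM, each overlapping the next. S100a4 was near the lower limit, at 0.494 ± 0.429 RPKM. In dKO liver S100a10 and S100a1 again held the first and second place without overlap, and S100a11 moved from the seventh place to the third. Summed over the 9 genes, the controls held 255, 457 and 347 RPKM and the dKO libraries 603, 557 and 521 RPKM in the order of their replicates, which was 0.0700% to 0.124% of all RPKM in control and 0.158% to 0.173% in dKO. The groups did not overlap in this sum.

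**Figure D1:**
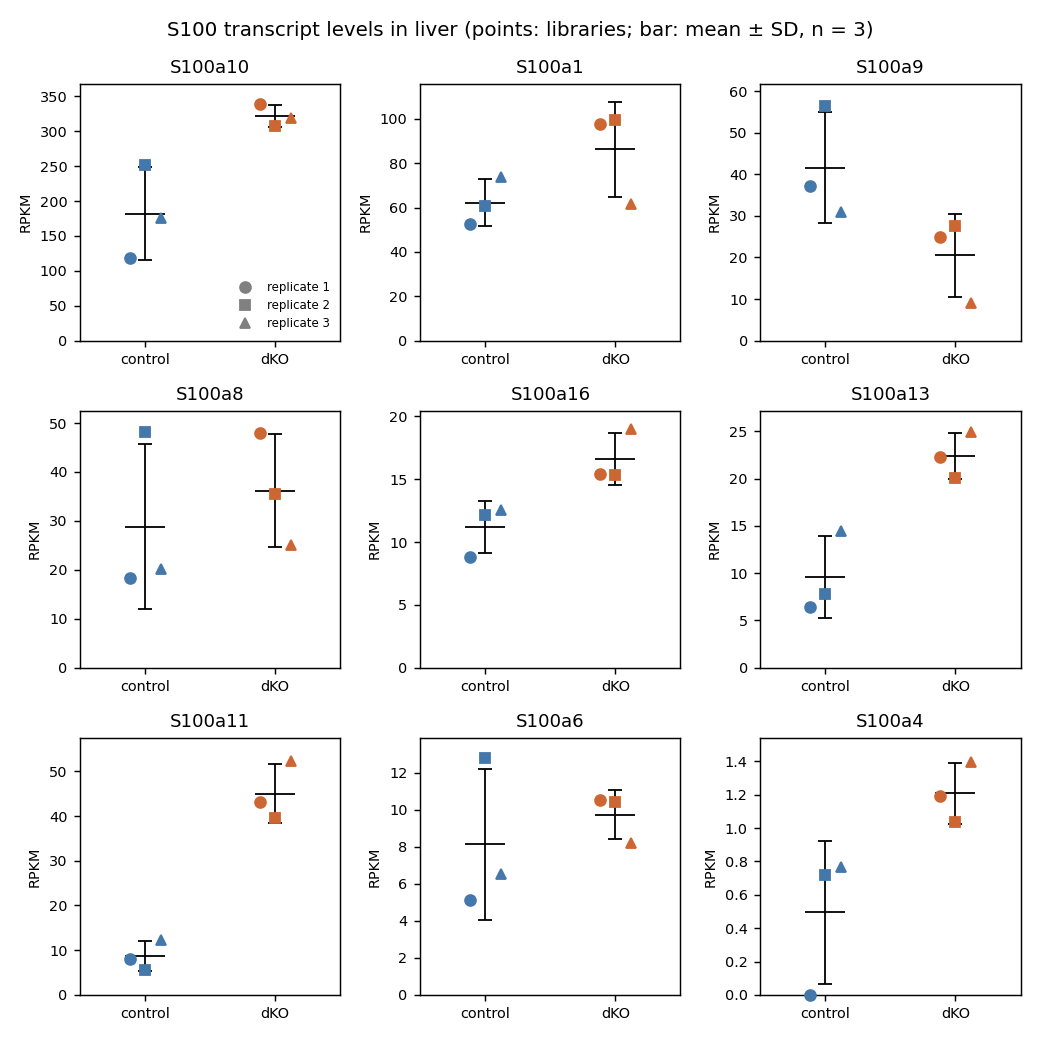
Levels of the 9 S100 genes (vertical axes in RPKM, starting at 0) in the 3 control and 3 dKO libraries, ordered by control mean, with the mean and SD of each group as bars and the replicate number as the symbol. All dKO points lie above all control points for S100a10, S100a16, S100a13, S100a11 and S100a4 and below them for S100a9.

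Of the 9 genes 8 passed the filter and were tested, and 4 of them were called higher in dKO liver, S100a11, S100a13, S100a10 and S100a16, while 0 were called lower. The background was 17.8% called higher and 2.17% called lower over the whole table. The 9 genes were chosen with earlier results of these data known, so their counts depend on that choice. S100g, an S100 gene outside the 9, was tested and called lower (limma adjusted p = 0.0258). With limma 1 member, S100a9, had an unadjusted p under 0.05 for a lower level. At the same 4 genes every dKO library lay above every control library, as at 38.3% of all tested genes, and at S100a9 every dKO library lay below every control library, as at 6.73%. The median log2 change was 0.49 over the 8 tested S100 genes and 0.23 over all tested genes. After median-ratio scaling, which moved the median of all tested genes from 0.23 to -0.01, 2 of the 8 stayed higher, S100a11 and S100a13. The number of members called higher was 1 without control replicate 1 or dKO replicate 3, 2 without any other single library but control replicate 2, and 6 without control replicate 2.

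S100a11, whose protein binds annexins and takes part in membrane repair and growth control, had the largest change of the 9. It measured 8.12, 5.60 and 12.2 RPKM in controls 1 to 3, against 43.1, 39.5 and 52.4 RPKM in dKO livers 1 to 3. The lowest dKO library thus stood far above the highest control. The mean rose 5.20-fold, from 8.65 ± 3.34 to 45.0 ± 6.63 RPKM, with a log2 change of 2.30 ± 0.24 (SE; limma adjusted p = 0.00136). The call was kept in all 13 alternatives, in which the log2 change ran from 2.03 to 2.56 and the adjusted p from 0.000114 to 0.0127. RefSeq lists a pseudogene, S100a11-ps, and reads shared with it could not be separated. Its promoter window, shown above, was the one with 2 AP-1 matches.

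S100a13, whose protein assists the unconventional release of FGF1 and interleukin 1 alpha, was the next in size. The control libraries held 6.43, 7.81 and 14.5 RPKM, with replicate 3 the highest, and the dKO libraries 22.3, 20.1 and 24.9 RPKM. Every dKO library lay above the controls. The mean rose 2.34-fold, from 9.58 ± 4.31 to 22.4 ± 2.41 RPKM (log2 change 1.22 ± 0.25, SE; limma adjusted p = 0.0171). The call was lost without control replicate 1 (adjusted p = 0.0528) and without dKO replicate 3 (0.0651), with a range over 13 alternatives of 0.00208 to 0.0651. S100a13 lies head to head with S100a1, and from the starts used for the promoter windows the transcripts do not overlap. The full RefSeq gene models do, by 98 bases on opposite strands. The library protocol in the labels names no strand marking, so reads from that overlap could count for either gene.

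S100a10, also called p11, is unusual in the family because its calcium loops have lost the ability to bind calcium, and it joins a pair of annexin A2 molecules in a membrane complex that binds plasminogen. It measured 118, 252 and 176 RPKM in controls 1 to 3, against 339, 308 and 320 RPKM in dKO livers 1 to 3. The controls spread widely and the dKO libraries were close together, all above control replicate 2. The mean rose 1.77-fold, from 182 ± 67.1 to 322 ± 16.1 RPKM (log2 change 0.89 ± 0.26, SE; limma adjusted p = 0.0450). This call was near the threshold and was lost in 8 of 13 alternatives, among them median-ratio scaling (log2 change 0.60, adjusted p = 0.156), a replicate block and leaving out any single library but control replicate 2 (range over the 13 alternatives 0.0105 to 0.156).

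S100a16, a broadly expressed member linked to fat cell formation, had the smallest of the called changes. It measured 8.80, 12.2 and 12.6 RPKM in controls 1 to 3, against 15.4, 15.4 and 19.0 RPKM in dKO livers 1 to 3. The groups did not overlap, and dKO replicate 3 was the highest library. The mean rose 1.48-fold, from 11.2 ± 2.07 to 16.6 ± 2.06 RPKM (log2 change 0.54 ± 0.16, SE; limma adjusted p = 0.0457). The call was lost in 9 of 13 alternatives (range 0.0444 to 0.198), and the log2 change was 0.27 after median-ratio scaling, 0.31 after quantile normalization and 0.39 without control replicate 1.

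**Figure D2:**
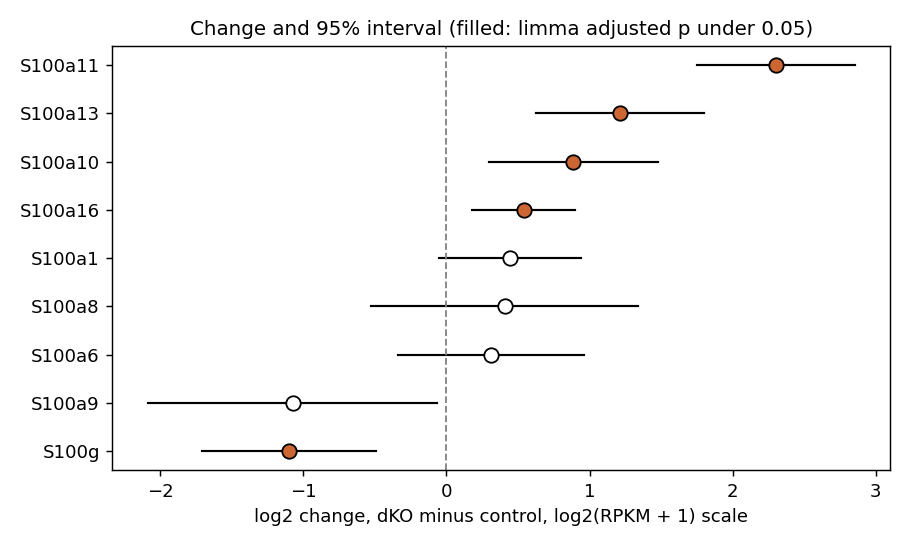
Log2 change of each tested S100 gene, dKO less control in log2(RPKM + 1) (horizontal axis), with its 95% interval as a line; filled points passed a limma adjusted p of 0.05. S100a11 lies highest at 2.30, S100g lowest at -1.10, and the interval of S100a8 runs from -0.53 to 1.34.

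Neither of the calprotectin genes S100a8 and S100a9 was called, and their measured changes had opposite signs. Their proteins form a heterodimer that is abundant in the cytosol of neutrophils and monocytes and binds zinc and manganese. S100a8 measured 18.2, 48.2 and 20.1 RPKM in controls 1 to 3, against 48.0, 35.4 and 25.1 RPKM in dKO livers 1 to 3. The groups overlapped because control replicate 2 was as high as the highest dKO library. Its log2 change was 0.41 ± 0.39 (SE; 95% interval -0.53 to 1.34; limma adjusted p = 0.474), and without control replicate 2 it was 0.84 with an adjusted p of 0.0497 (range over 13 alternatives 0.0497 to 0.844). S100a9 measured 37.3, 56.6 and 30.9 RPKM in controls 1 to 3, against 24.9, 27.7 and 9.16 RPKM in dKO livers 1 to 3. Each dKO library was below each control, with dKO replicate 3 the lowest. The mean was 41.6 ± 13.3 RPKM in control and 20.6 ± 9.99 RPKM in dKO, a ratio of 0.495, but the log2 change of -1.07 ± 0.42 (SE; 95% interval -2.09 to -0.06) had a limma adjusted p of 0.115 and was not called. The log2 change was -0.60 without dKO replicate 3, and the adjusted p over 13 alternatives ran from 0.0159, with a replicate block, to 0.252.

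Within each library the ratio of S100a8 to S100a9 was 0.489, 0.852 and 0.650 in the control and 1.93, 1.28 and 2.74 in the dKO replicates. S100a9 was thus the more abundant of the pair in every control library and S100a8 in every dKO library. The mean ratio was 0.664 ± 0.182 in control and 1.98 ± 0.733 in dKO (SD, n = 3). This ratio was chosen after its values were seen and was not tested. Other neutrophil genes were low throughout. Of 15 neutrophil markers 14 were listed, Ly6g being not analysed here, and 3 were tested with 0 called in either direction by limma (1 had an unadjusted p under 0.05, lower). After quantile normalization, with a replicate block and without control replicate 3, 1 was called lower. Their summed level was 9.63, 16.9 and 8.28 RPKM in controls 1 to 3, against 10.4, 8.39 and 10.2 RPKM in dKO livers 1 to 3. Control replicate 2, the library with the most S100a8 and S100a9 among the controls, also held the most neutrophil marker RNA. In dKO replicate 1 was highest in both, but otherwise the orders differed. S100a8 and S100a9 together were at 73.0, 63.1 and 34.3 RPKM in dKO livers 1 to 3, while replicate 2 had the lowest marker sum. Among the neutrophil markers Camp, which encodes the granule peptide cathelicidin, stood at 2.31, 3.45 and 1.36 RPKM in controls 1 to 3, against 0.916, 1.49 and 0.684 RPKM in dKO livers 1 to 3, with overlapping groups. Mpo, the myeloperoxidase gene, stood at 0.113, 0.125 and 0.169 RPKM in controls 1 to 3, against 0.341, 0.387 and 0.403 RPKM in dKO livers 1 to 3. At 4 of the 14 markers, Mpo, Elane, Prtn3 and Mmp9, every dKO library lay above every control, none of them passing the filter, and at 0 did every dKO library lie below. Over all tested genes the shares were 38.3% above and 6.73% below, and they were not taken for genes under the filter. The part of neutrophil number in the S100a8 and S100a9 levels was not tested.

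**Figure D3:**
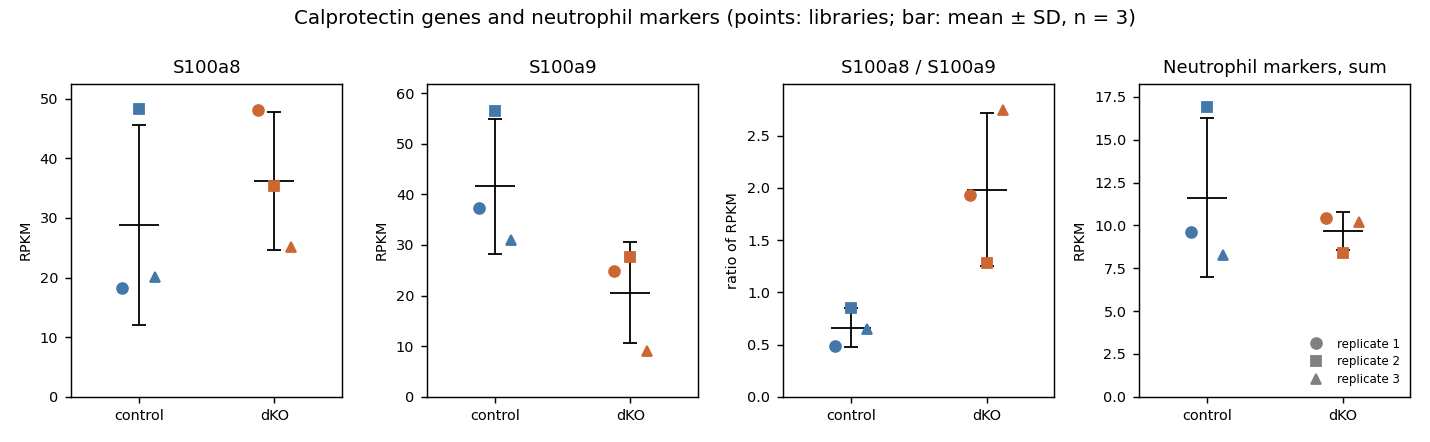
S100a8 and S100a9 levels (RPKM), their ratio within each library and the summed level of 14 neutrophil markers (RPKM) in 3 control and 3 dKO libraries, with group mean and SD as bars. The ratio is between 0.489 and 0.852 in control and between 1.28 and 2.74 in dKO, while the marker sums of the groups overlap.

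S100a1, best known as a regulator of calcium pumps and release channels in muscle, was the second most abundant member in both groups. It measured 52.6, 60.5 and 73.6 RPKM in controls 1 to 3, against 97.7, 99.4 and 61.7 RPKM in dKO livers 1 to 3. Both dKO replicates 1 and 2 exceeded every control, while dKO replicate 3 lay within the control range. The log2 change was 0.45 ± 0.22 (SE; 95% interval -0.05 to 0.94; limma adjusted p = 0.167), and it was 0.67 without dKO replicate 3, with an adjusted p of 0.0534. Over the 13 alternatives the adjusted p was 0.0534 to 0.707.

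S100a6, or calcyclin, is a marker of epithelial and fibroblast-like cells and binds the ubiquitin ligase adaptor encoded by Cacybp. It measured 5.13, 12.8 and 6.51 RPKM in controls 1 to 3, against 10.6, 10.4 and 8.21 RPKM in dKO livers 1 to 3, and control replicate 2 was the highest of all 6. The log2 change was 0.31 ± 0.28 (SE; 95% interval -0.34 to 0.96; limma adjusted p = 0.436). Without control replicate 2 it was 0.65 with an adjusted p of 0.0304 (range over 13 alternatives 0.0304 to 0.905). Cacybp had a control mean of 10.8 ± 0.728 RPKM and a ratio of dKO to control of 1.02 (limma adjusted p = 0.968), and its log2 change of 0.01 turned negative under both scalings and when control replicate 2, control replicate 3 or dKO replicate 3 was left out.

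S100a4, also called fibroblast-specific protein 1 and found in fibroblasts and macrophages, was the scarcest member. It was listed at 0, 0.717 and 0.765 RPKM in controls 1 to 3, against 1.19, 1.03 and 1.40 RPKM in dKO livers 1 to 3. Every dKO library was above every control, but the mean over all libraries of 0.851 RPKM was below the filter and no test was made in the fit. Its log2 difference on the log2(RPKM + 1) scale was 0.61, and 0.34 without control replicate 1, the library listed at 0.

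The other S100 genes were nearly silent in liver. S100a3, S100a5 and S100z were listed at 0 in all 6 libraries, S100a2 and S100a7a were above 0 in 1 library each, and S100a14 and S100b reached at most 0.126 and 0.0987 RPKM. The exception was S100g, which encodes calbindin D9k, a carrier of calcium across the cytosol that is known as a vitamin D target. S100g measured 2.52, 2.49 and 3.68 RPKM in controls 1 to 3, against 1.62, 0.782 and 0.256 RPKM in dKO livers 1 to 3. All dKO libraries were below all controls. S100g passed the filter only through the control group, as its dKO mean of 0.886 RPKM was below 1. It fell by 1.10 on the log2 scale (SE 0.27; limma adjusted p = 0.0258), to 0.306 of its control mean, and the call was lost in 5 of 13 alternatives, with an adjusted p of up to 0.0822. These were the lack of a filter and leaving out control replicate 1 or 3 or dKO replicate 2 or 3. Large proteins with a fused S100 domain, such as trichohyalin, had 6 of 7 genes listed and 0 tested.

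Among 21 genes of proteins known to bind S100 proteins, 20 were tested, with a median log2 change of 0.41 against 0.23 over all tested genes. Limma called 8 of the 20 higher and 0 lower, against 17.8% and 2.17% of all tested genes. By unadjusted limma p under 0.05 there were 10 higher and 0 lower, and the called increases numbered 4 without control replicate 1 or 3 or dKO replicate 1, 5 without dKO replicate 2 or 3 and 5 after median-ratio scaling. Anxa2, which encodes the annexin partner of S100A10, measured 5.04, 10.6 and 6.64 RPKM in controls 1 to 3, against 31.7, 18.0 and 51.9 RPKM in dKO livers 1 to 3. Every dKO library was above the controls, with dKO replicate 3 the highest. The log2 change was 1.98 (limma adjusted p = 0.0192), and the call was lost with a replicate block and without control replicate 1, control replicate 3 or dKO replicate 1 (limma adjusted p over 13 alternatives 0.00872 to 0.0691). S100a10 exceeded Anxa2 in every library, by ratios of 23.5, 23.7 and 26.5 in control and 10.7, 17.1 and 6.16 in dKO. The ratio was therefore close to constant over the controls and lower in each dKO library, although both transcripts were higher in dKO. It was chosen after its values were seen and was not tested. Ahnak, the gene of a giant scaffold protein that binds the S100A10 and annexin A2 complex, rose 4.11-fold, from 2.69 ± 0.451 to 11.1 ± 3.31 RPKM (limma adjusted p = 0.00201). Myh9, the heavy chain of non-muscle myosin that S100A4 binds, rose 3.31-fold, from 34.2 ± 2.71 to 113 ± 26.0 RPKM (limma adjusted p = 0.00121). Anxa5, another annexin gene, rose 6.80-fold to 135 ± 35.1 RPKM (limma adjusted p = 0.000493).

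**Figure D4:**
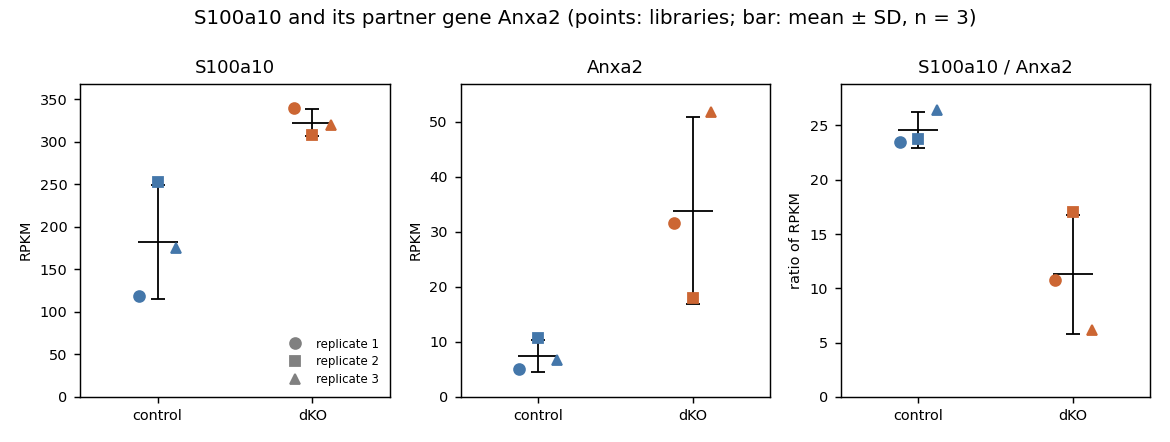
S100a10 and Anxa2 levels (RPKM) and the ratio of S100a10 to Anxa2 within each library, for 3 control and 3 dKO libraries with group mean and SD as bars. The ratio lies between 23.5 and 26.5 in control and between 6.16 and 17.1 in dKO.

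Of 10 genes for cell surface receptors of S100 proteins, 8 were tested. Limma called 4 higher and 0 lower, the same counts as by unadjusted p under 0.05, against 17.8% and 2.17% of all tested genes. The increases numbered 2 without control replicate 3 and 2 after median-ratio scaling. Cd36, a scavenger receptor and fatty acid carrier that also takes up S100A8 and S100A9 complexes, rose 5.67-fold to 79.5 ± 3.54 RPKM (limma adjusted p = 0.000364). Bsg, the gene of basigin, a receptor for S100A9, rose 2.05-fold to 369 ± 45.5 RPKM (limma adjusted p = 0.00818). The receptors most often tied to released S100 proteins were low. Tlr4 had means of 1.61 ± 0.615 RPKM in control and 1.41 ± 0.309 RPKM in dKO (limma adjusted p = 0.738; the sign flipped without control replicate 2), and Ager, the gene of RAGE, at 0.409 ± 0.267 and 0.285 ± 0.142 RPKM, below the filter. For comparison with other calcium sensors, 27 of 32 further EF-hand genes were tested. Limma called 12 higher and 0 lower (17 and 1 by unadjusted p under 0.05), against 17.8% and 2.17% of all tested genes. The median log2 change was 0.47, against 0.23 over all tested genes. There were 4 to 12 increases with 1 library left out, with 4 without control replicate 1, 7 without control replicate 3 or dKO replicate 1 and 5 without dKO replicate 3, and 5 increases and 2 decreases after median-ratio scaling. Cib3, a calcium and integrin binding gene, had the smallest p of these and went from 0.972 ± 1.18 to 34.1 ± 6.92 RPKM (limma adjusted p = 0.00206; it passed the filter only through the dKO group), and Capns1, the small calpain subunit, from 30.0 ± 2.92 to 55.6 ± 6.70 RPKM (limma adjusted p = 0.00718).

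Markers of other cell types that express S100 genes were measured beside these results. Over all tested genes limma called 17.8% higher and 2.17% lower, the shares to set beside each list. Of 13 cholangiocyte and progenitor markers 9 were tested and 9 called higher. The count was 7 or 8 with 1 library left out and 7 after median-ratio scaling or quantile normalization. Krt19 rose from 1.29 ± 0.319 to 3.18 ± 1.47 RPKM (limma adjusted p = 0.0473), a call lost in 8 of 13 alternatives. Summed over the 13 markers, the level was 42.4 to 102 RPKM in control and 396 to 1086 RPKM in dKO libraries. Spp1, the osteopontin gene, made up most of the dKO sums, and without it the sums reached at most 37.3 RPKM in control and 176 RPKM in dKO, still with no overlap. The surface marker Epcam, counted among the 9, rose from 0.359 ± 0.392 to 6.77 ± 4.56 RPKM (limma adjusted p = 0.00851), but it passed the filter only through the dKO group. Macrophage and monocyte markers had 3 of 13 tested genes called higher, Lyz2, Vsig4 and Cd14, and sums of 138 to 290 RPKM in control and 229 to 350 RPKM in dKO, with control replicate 2 the highest control. Without that library 10 macrophage markers were called higher, and 1 was called without control replicate 3 and 2 when dKO replicate 1 or 3 was left out. By unadjusted limma p under 0.05, 7 macrophage markers were higher and 1 was lower. Called decreases among them numbered 0 in the reported fit and 1 without control replicate 3, after median-ratio scaling and after quantile normalization. The call of Cd14 was lost in 6 of 13 alternatives (limma adjusted p up to 0.0915) and that of Lyz2 in 2 (up to 0.0608). Stellate cell and fibroblast markers had 1 of 14 called higher, Colec11, and 6 higher by unadjusted limma p under 0.05. Their sums were 221 to 231 RPKM in control and 242 to 406 RPKM in dKO, the highest in dKO replicate 3. Called increases numbered 0 to 2 when 1 library was left out and 4 with a replicate block. Endothelial markers had 0 of 10 called in either direction by limma (0 also by unadjusted p under 0.05), with sums of 91.5 to 102 and 102 to 121 RPKM, and lymphocyte markers summed to at most 3.55 RPKM in any library. No marker of these 5 lists was at 0 in all libraries. Of 9 tested hepatocyte markers limma called 0 higher (0 also by unadjusted p under 0.05) and 3 lower, Cyp2e1, Ttr and Serpina1a. At 5 of the 9 every dKO library lay below every control, as at 6.73% of all tested genes. The hepatocyte marker sums were 54860 to 71960 RPKM in control and 47180 to 53890 RPKM in dKO, which did not overlap. The 3 decreases became 0 when control replicate 1 was left out, 2 when dKO replicate 2 was, and 1 when control replicate 3, dKO replicate 1 or dKO replicate 3 was, as after either scaling or with a replicate block. Proliferation markers had 3 of 6 called higher (6 by unadjusted limma p under 0.05), with sums of 25.0 to 31.2 RPKM in control and 45.6 to 47.1 RPKM in dKO. Of these markers 2 or 3 were called with 1 library left out, 2 with a replicate block and 1 after either scaling. The part of these cell types in the S100 levels was not tested.

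The nearest tested genes outside the family on the chromosome were compared as well. The 2 nearest on each side of each member came to 5 genes in all. S100 genes and untested genes were passed over, so the 5 need not lie directly beside a member, and distances were not measured. Against 17.8% higher and 2.17% lower over all tested genes, limma called 2 of the 5 higher and 0 lower. These were Snapin, a vesicle fusion gene, with a log2 change of 0.61 (limma adjusted p = 0.0113, and up to 0.0748 after the scalings), and Sprr1a, which encodes a cornified envelope protein of squamous epithelium. Sprr1a measured 0.146, 0 and 0.121 RPKM in controls 1 to 3, against 1.04, 2.02 and 3.43 RPKM in dKO livers 1 to 3 (limma adjusted p = 0.00975). Sprr1a passed the filter only through the dKO group, and fell below it, so had no test, when dKO replicate 2 or 3 was left out.

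For each called member the 3 genes with the most similar profile over the 6 libraries were sought among tested genes averaging 5 RPKM or more, by the root mean square difference of log2 values taken relative to the control mean. For S100a11 these were Gas6, the ligand gene of TAM receptors (difference 0.180), Mme, the gene of the membrane peptidase neprilysin (0.215), and Trim7 (0.221). Mme and Trim7 reached the limit of 5 RPKM only through the dKO group, with control means of 3.64 and 2.21 RPKM. Gas6 ran from 6.86 to 9.91 RPKM in control and from 38.2 to 55.8 RPKM in dKO libraries. For S100a10 they were Selenbp1 (0.105), Prnp, the prion protein gene (0.120), and Pts (0.134). Each was highest among controls in replicate 2, as S100a10 was, but the search matched profiles over these same 6 libraries and so favoured such genes. For S100a13 they were Slc45a3 (0.193), Lims2 (0.198) and Hes1 (0.210), and for S100a16 Tmed4 (0.0582), Rxrb (0.0585) and Spc25 (0.0595).

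**Figure D5:**
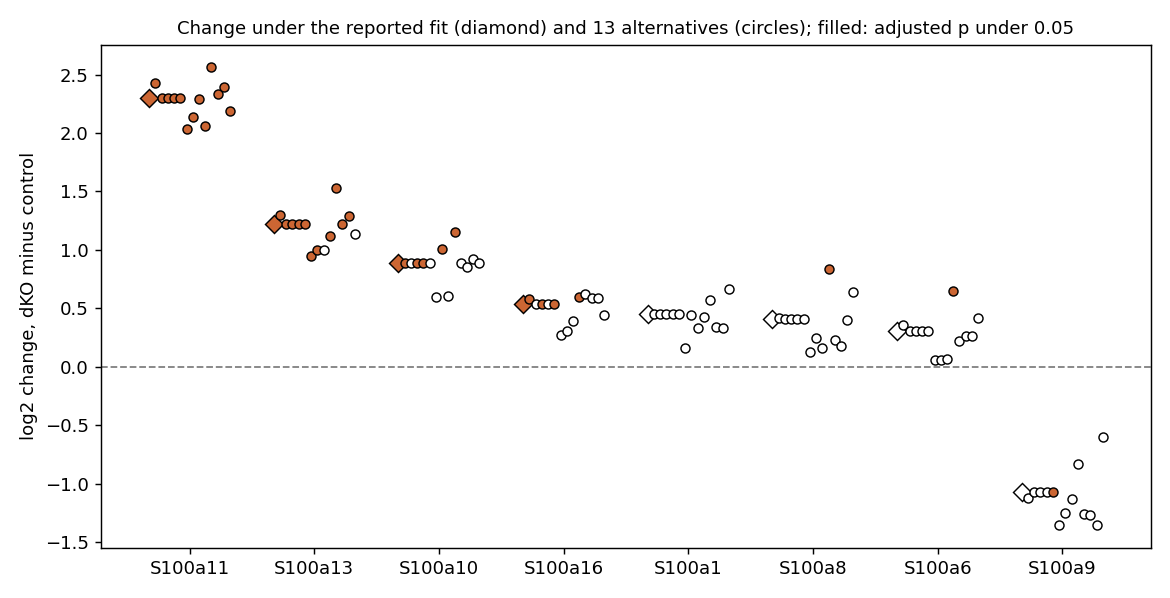
Log2 change of the 8 tested S100 genes (vertical axis) under the reported fit (diamond) and 13 alternatives (circles), in the order in which the alternatives are listed in the processing; filled symbols passed a limma adjusted p of 0.05. All symbols of S100a11 are filled, and no gene crosses 0.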

How the data were processed

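Liver RNA of 3 control and 3 dKO libraries was used, with groups taken from the sample titles. The authors deposited 1 normalized value per gene symbol, read here as RPKM; per the submitters' processing notes the build was mm9, and which aligner, counter and annotation they used is not given in the sources used here. Low values lay within 0.15 of a whole read in 72.4% to 78.9% of 312 to 533 values per library, at a spacing chosen to fit them, which gave the depth estimates; the unit was not tested further. Members and lists were chosen with earlier results of these data known. The 11062 genes averaging 1 RPKM or more entered a fit by limma (version 3.58.1, R 4.3.3) on log2(RPKM + 1). The fit used the trend and robust options, no block and Benjamini-Hochberg adjustment over all tested genes. It was also run on simulated data with the same spread for every gene and equal odds of rise and fall. Here spread differed between genes and most calls were increases, so that run does not check these calls. Alternatives were, in order, a pseudocount of 0.1 RPKM, no filter, at least 1 RPKM in 3 libraries, no robust option, a replicate block, median-ratio scaling, quantile normalization and each library left out. Named were all members, S100g, and genes of fixed lists beside a member's result, taken from each list's called genes, at most 4 by p, and from a set of marker and partner genes. Other steps ran in Python 3.11.15 (numpy 2.4.6, matplotlib 3.10.9). Sequences are from RefSeq (GRCm38.p6) and matched by symbol; no mm9 sequence was used, and protein sequences were not analysed here.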

Additional observations from a re-analysis of the deposited data

How the results depend on the processing

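S100 members called higher numbered 4 in the reported fit and 2 with no filter on low values or with median-ratio scaling, and 1 to 6 when 1 library was left out. Members called lower numbered 0, and 1 (S100a9) with a replicate block. Over all tested genes 1965 were higher and 240 lower; median-ratio scaling gave 873 and 614 (58.7% of calls higher against 89.1%), quantile normalization 727 and 554 (56.8%), and no filter left 145 lower. With 1 library left out, 763 to 1992 genes were higher and 90 to 241 lower. None of the 8 tested S100 members changed direction under the 13 alternatives, and S100a4, which was not tested, kept its direction with each of the 6 libraries left out. Changes of sign among uncalled genes were Cacybp, with a log2 change of -0.26 after median-ratio scaling, -0.23 after quantile normalization and -0.13 to 0.11 when 1 library was left out; Tlr4, at 0.07 without control replicate 2; and Stk4, at -0.11 and -0.16 under the same scalings. The causes were not tested. Libraries with the same replicate number did not resemble each other: deviations from the group means correlated at -0.081, -0.101 and -0.010 for numbers 1, 2 and 3. With 3 libraries a group, these correlations cannot show whether the numbers pair the samples. With the replicate block, S100 members called higher numbered 3, S100a10 being lost (adjusted p = 0.0553), and 1513 genes were higher over all. With 3 libraries a group the intervals were wide, as for S100a8, where the 95% interval ran from -0.53 to 1.34.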
